A study of Mus musculus with 4 samples.

Results

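The genes of the proteasome, the protease complex that degrades ubiquitin-tagged proteins, were followed in cultured mouse B cells with and without the transcription factor Ascl2. They were taken by symbol (Psma, Psmb, Psmc, Psmd, Psme, Psmf or Psmg followed by a number), which gave 48 of the 13792 genes listed. Of these, 46 encode subunits, activators, an inhibitor or assembly chaperones. The others are Psmc3ip, which encodes a partner of meiotic recombinases and no proteasome subunit, and Psme2b, a retrocopy of Psme2. Every count below uses genes that reached 1 in either library, a filter that all 48 and 12283 genes in all passed.

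Both RNA libraries came from naive B cells of C57BL/6 mice that had been retrovirally infected and grown with antibodies against IgM and CD40, which mimic antigen and T cell help. One library (the empty vector) received RVKM-Empty and the other (Ascl2) received RVKM-Ascl2, and all other steps named in the labels were shared. The sources used here do not give the age or number of mice, the length of culture, or whether infected cells were sorted. The retrovirus supplies Ascl2 to a B cell culture, so the comparison is one of added Ascl2. Each group is 1 library. No difference below therefore has a replicate check, no test was possible, and "higher" and "lower" describe these libraries alone.

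The 20S core particle is a barrel of stacked rings, with outer rings of alpha subunits (Psma genes) and inner rings of beta subunits (Psmb genes). Psmb5, Psmb6 and Psmb7 carry the proteolytic sites, and lymphocytes can replace them with the immunosubunits Psmb8, Psmb9 and Psmb10, which favour peptides suited to MHC class I. The 19S regulatory particle caps the core, with ATPases (Psmc genes) that unfold the substrate and non-ATPases (Psmd genes) that bind ubiquitin or remove it. Alternative caps are encoded by the Psme genes. In plasma cells, which secrete large amounts of antibody, proteasome capacity is known to fall as secretion grows.

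The sequences at the start of 5 members are shown because they belong to the pairs on which the results turn, namely 2 catalytic subunits, the immunosubunit that starts next to Tap1, and the activator partners Psme1 and Psme2. They are from RefSeq on GRCm38.p6, the assembly called mm10, read along the gene. Those of Psmb5, Psmb9, Psme1 and Psme2 end 1 base before the annotated gene. The stretch of Psmb6 ends 1 base before the start used in the promoter table, 70525357, and lies inside the RefSeq gene, which begins at 70525324. Capitals mark matches on either strand to TGACNNNGC, the core of the antioxidant response element bound by the proteasome regulator Nfe2l1, or to CCAAT. No match to CAGCTG, an E-box of the kind that basic helix-loop-helix factors bind, or to the interferon element (GAAA, any 2 bases, GAAA) lay in these stretches.
Psmb5, chr14:54617996-54618245, minus strand: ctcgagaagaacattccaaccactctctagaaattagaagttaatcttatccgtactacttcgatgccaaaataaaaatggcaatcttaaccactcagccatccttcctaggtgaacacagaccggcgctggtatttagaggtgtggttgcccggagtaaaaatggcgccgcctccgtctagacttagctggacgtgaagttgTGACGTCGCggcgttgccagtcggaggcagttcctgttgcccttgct
Psmb6, chr11:70525327-70525356, plus strand: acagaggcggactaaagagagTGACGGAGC
Psmb9, chr17:34187331-34187555, minus strand, up to the start of Tap1 on the other strand: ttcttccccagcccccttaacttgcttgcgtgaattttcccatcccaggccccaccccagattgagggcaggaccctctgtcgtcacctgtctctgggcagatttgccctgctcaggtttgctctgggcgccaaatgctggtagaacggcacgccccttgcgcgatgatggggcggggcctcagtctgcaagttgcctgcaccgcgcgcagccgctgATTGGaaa
Psme1, chr14:55578244-55578493, plus strand: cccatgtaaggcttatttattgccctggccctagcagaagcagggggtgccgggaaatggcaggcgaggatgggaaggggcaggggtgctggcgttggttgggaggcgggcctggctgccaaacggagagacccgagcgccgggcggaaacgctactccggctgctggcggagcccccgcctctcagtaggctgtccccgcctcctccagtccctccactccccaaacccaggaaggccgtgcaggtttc
Psme2, chr14:55591102-55591351, minus strand: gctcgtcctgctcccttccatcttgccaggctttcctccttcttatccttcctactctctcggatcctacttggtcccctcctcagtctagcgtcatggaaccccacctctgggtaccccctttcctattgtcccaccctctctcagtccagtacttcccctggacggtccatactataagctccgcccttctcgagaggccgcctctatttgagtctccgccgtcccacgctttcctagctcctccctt

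A promoter window was held for 41 of the 48 members, and for 27025 gene symbols in all. For 7 of the 41, Psmb6 among them, the window reached into the annotated gene because the gene begins further upstream. In the 250 bases before the start that the windows use, TGACNNNGC was found in 5 members (12.2%, against 11.5% of all symbols), which were Psmb5, Psmb6, Psmc6, Psmd9 and Psmd12. CCAAT was found in 14 members (34.1% against 37.5%) and the interferon element in 3 (7.32% against 3.46%), namely Psmb3, Psmd4 and Psmd9. CAGCTG was found in 2 members, Psmd4 and Psmd10 (4.88% against 14.7%), and the wider E-box form CANNTG, which includes it, in 22 (53.7% against 69.3%). A match in these windows is a description of letters and not a bound site.

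As a whole, proteasome transcripts were slightly lower in the Ascl2 library. Differences are given as log2 ratios of Ascl2 over empty vector, after adding 1 to each value, and paired values come in the order empty vector, Ascl2. Of the 48 members, 37 had a ratio below 0 (77.1%, against a background of 51.6% of the 12283 genes), and their median was −0.15 against −0.01 for all genes. Among 8020 other genes with a mean value in the members' range, from 6.19 to 245, 53.7% were below 0 and the median was −0.03. The members' values summed to 4575 with the empty vector against 4142 with Ascl2, which was 0.609% and 0.542% of each library's total. These shares depend on what the total holds, and it includes immunoglobulin genes and Pcdh15. Without those, the Ascl2 values would have to be raised by a factor of 1.07 for the sums to be equal.

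The differences were small. No member was past 2-fold, where the background was 2.25% of all genes. Only Psmc3ip, the recombination gene, was at least 1.5-fold lower (background 4.31%) and no member was at least 1.5-fold higher (background 5.01%). At a smaller limit, a log2 ratio of 0.32 in size, 12 of the 48 members were lower and 2 were higher, leaving 34 between. The background was 15.7% of all genes lower and 14.2% higher. Of the 8020 other genes in the members' range, 1201 were lower and 868 higher. The members' share was thus above the background for lower genes and below it for higher ones. Without Psmc3ip and Psme2b, 35 of 46 were below 0, the median was −0.14 and none was past 1.5-fold. At the smaller limit 10 of these 46 were lower and 2 were higher. Over the 48 members, which share both libraries, Pearson's r between the log2 values was 0.98. Their wide range of levels, with the highest 37.5 times the lowest with the empty vector, favours such a value in advance. It was not computed for all genes.

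**Figure D1:**
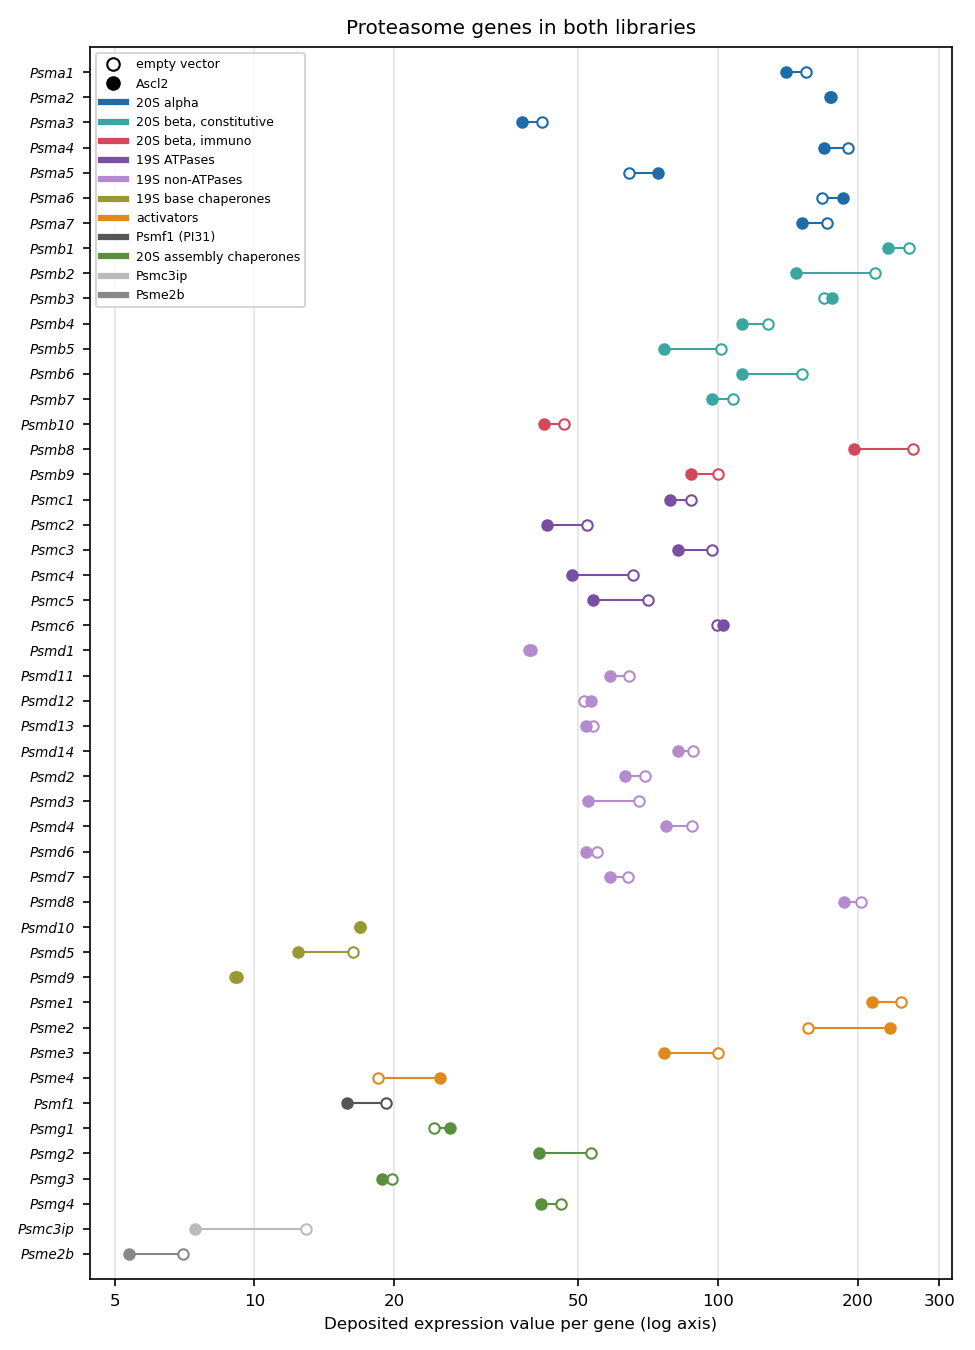
Deposited expression value (log axis) of each of the 48 members in the empty-vector library (open circles) and the Ascl2 library (filled circles), coloured by role. Most filled circles lie slightly to the left of the open ones, and the widest gaps to the right are those of Psme2 and Psme4.

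The alpha ring, which gates the core, had similar values in both libraries. With the empty vector its 7 measured genes ran from 41.8 (Psma3) to 191 (Psma4), and with Ascl2 from 37.8 (Psma3) to 186 (Psma6). Psma1 was 155 with the empty vector against 140.4 with Ascl2, Psma4 was 191 and 169, and Psma7 was 172 and 152. Psma2 was 175 in both. Most of these outer-ring genes were thus level or slightly lower, and a pair was higher. Psma5 was 64.3 and 74.2 (log2 ratio 0.20) and Psma6 was 168 and 186 (0.15). None of the 7 was past the smaller limit of 0.32, and their median was −0.14 while their mean was −0.04. Psma3 and Psma5 stood well below the other alpha genes in both libraries although each alpha subunit is present in equal number in the ring. The values appear to be scaled for gene length, and levels of different genes are set side by side on that reading.

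The constitutive beta ring was lower in 6 of its 7 genes, with a median of −0.18. Psmb2, a beta subunit without a proteolytic site, was 218 with the empty vector against 147 with Ascl2 (log2 ratio −0.57), the lowest ratio of any true subunit. Psmb5, the chymotrypsin-like site, was 101 and 76.4 (−0.40). Psmb6, the caspase-like site, was 151 and 112 (−0.43). These 3 genes were past the limit of 0.32, and the rest of the ring was not. Psmb7, the trypsin-like site, was 108 and 97.2. The structural subunits Psmb1 and Psmb4 were 258 and 232, and 128 and 113, while Psmb3 was 169 and 176, the only one above 0. RefSeq lists pseudogenes under the names of 4 members (Psma5, Psmb5, Psmb6 and Psmb7), and copies under other names were not looked for. The sources used here do not say how reads were shared with such copies.

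All 3 immunosubunits were lower, as were the subunits they replace. Psmb8 and Psmb10 differed by much the same ratio as their partners, and Psmb9 by less than Psmb6. Psmb8 (beta5i; chromosome 17, 34198195 to 34201454, mm10) was 263 with the empty vector against 196 with Ascl2 (log2 ratio −0.42). Psmb9 (beta1i; 34182030 to 34187330), 10864 bases away in the MHC class II region, was 100.2 and 87.5 (−0.19). Psmb10 (beta2i, on chromosome 8) was 46.6 and 42.04 (−0.15). Psmb8 thus had the highest value of all members with the empty vector, and among core subunits only Psma3 was below Psmb10 in either library.

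The balance between immunosubunits and constitutive catalytic subunits was nearly identical in the libraries for the sum and for 2 of the 3 pairs. Psmb8 made up 72.2% of the summed Psmb8 and Psmb5 values in the empty-vector library, against 71.9% with Ascl2. Psmb10 made up 30.2% of the Psmb10 and Psmb7 sum in both. Psmb9 made up 39.8% of the Psmb9 and Psmb6 sum with the empty vector and 43.8% with Ascl2, a difference of 3.99 percentage points. Summed over the 3 sites, immunosubunits took 53.2% in both libraries, although their sum went from 410.2 to 326 and that of the constitutive partners from 361 to 286. These shares are ratios within a library and do not depend on how the libraries were scaled. Their size does rest on the reading that values are scaled for gene length. They are of transcripts, so the make-up of assembled particles was not measured.

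**Figure D2:**
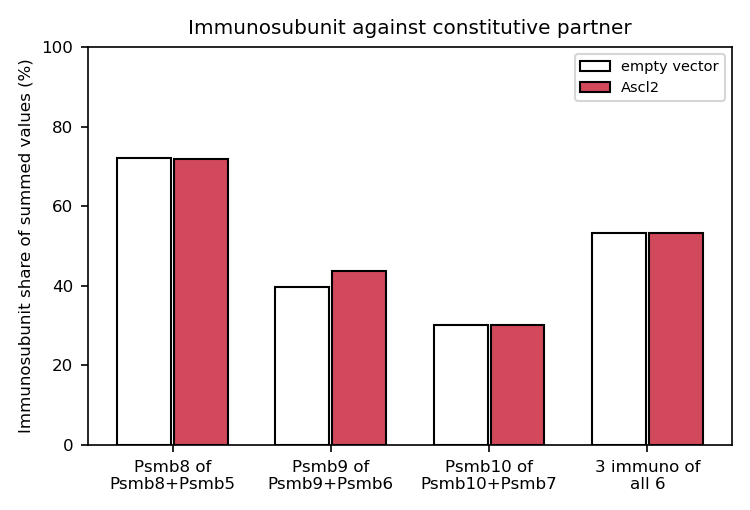
Share of the summed deposited values (percent) taken by each immunosubunit against its constitutive partner, and by all 3 together, in the empty-vector library (white bars) and the Ascl2 library (red bars). The bars of each library are level for Psmb8 and Psmb10, and for the sum at 53.2%, while Psmb9 is 39.8% and 43.8%.

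Among the 19S ATPases, which unfold substrates and open the core, 5 of 6 were lower and the median was −0.26. Psmc4 was 65.6 with the empty vector against 48.3 with Ascl2 (log2 ratio −0.43), and Psmc5 was 70.8 and 53.7 (−0.39). Both were past the limit of 0.32. Psmc2 was 52.03 and 42.8, Psmc3 was 97.3 and 81.99, and Psmc1 was 87.3 and 78.7. Psmc6 alone was level, at 99.7 and 102.6. The 6 genes thus lay within a narrow band, with the highest 1.92 times the lowest with the empty vector.

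The 19S non-ATPases were closer to no difference, with 9 of 11 below 0 and a median of −0.12. Psmd3, a scaffold subunit of the lid, was 67.4 with the empty vector against 52.4 with Ascl2 (log2 ratio −0.36) and was the only one past the limit of 0.32. The ubiquitin receptor Psmd4 was 88.05 and 77.2, and Psmd14, the deubiquitinase of the lid, was 88.1 and 81.99. The large base scaffolds Psmd1 and Psmd2 were 39.1 and 39.4, and 69.7 and 63.02. Of the other lid genes, Psmd12 was 51.5 and 53.3, Psmd13 was 53.8 and 51.8, Psmd6 was 54.8 and 51.9, Psmd7 was 63.97 and 58.5, and Psmd11 was 64.3 and 58.4. Psmd8, at 203 and 187, stood far above the rest of the particle in both libraries. The median ATPase value was 0.472 times the median alpha-ring value with the empty vector and 0.436 times with Ascl2, and for the non-ATPases it was 0.384 times in both.

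The activators shared no direction, with 2 above and 2 below 0. Psme1 and Psme2 encode partner subunits of the interferon-inducible PA28 cap and lie on opposite strands of chromosome 14 (55578494 to 55581527 and 55587440 to 55591101), 5912 bases apart. Psme1 was 248 with the empty vector against 215 with Ascl2 (log2 ratio −0.21). Psme2 was 156 and 235 (0.58), the highest ratio of all members and just short of 1.5-fold. The ratio of Psme2 to Psme1 went from 0.631 to 1.09, so the order of the partners differed between the libraries. Psme2 shares sequence with its retrocopy Psme2b on chromosome 11, which was 7.02 and 5.36, so its value is uncertain.

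Psme3, the nuclear PA28 gamma cap, was 99.9 with the empty vector against 76.4 with Ascl2 (log2 ratio −0.38). Psme4, the large PA200 cap, was 18.5 and 25.2 (0.42). Psme4 was thus 0.185 times Psme3 with the empty vector and 0.33 times with Ascl2. Psmf1, which encodes the proteasome binding protein PI31, was 19.2 and 15.8 (−0.26).

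The assembly chaperones were low next to most subunits, from 9.10 to 53.2 with the empty vector. Of the pairs that build the alpha ring, Psmg1 was 24.4 with the empty vector against 26.4 with Ascl2, and Psmg2 was 53.2 and 41.04 (log2 ratio −0.37). Psmg3 was 19.8 and 18.8 and Psmg4 was 45.9 and 41.6. Psmg2 thus lay above its partner Psmg1, and Psmg4 above its partner Psmg3, in both libraries. Of the chaperones of the 19S base, Psmd9 and Psmd10 were level, at 9.10 and 9.17 and at 16.88 and 16.89, and Psmd5 was 16.3 and 12.4 (−0.37). Psmc3ip, the symbol that is no subunit, was 12.9 and 7.43 (−0.72).

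**Figure D3:**
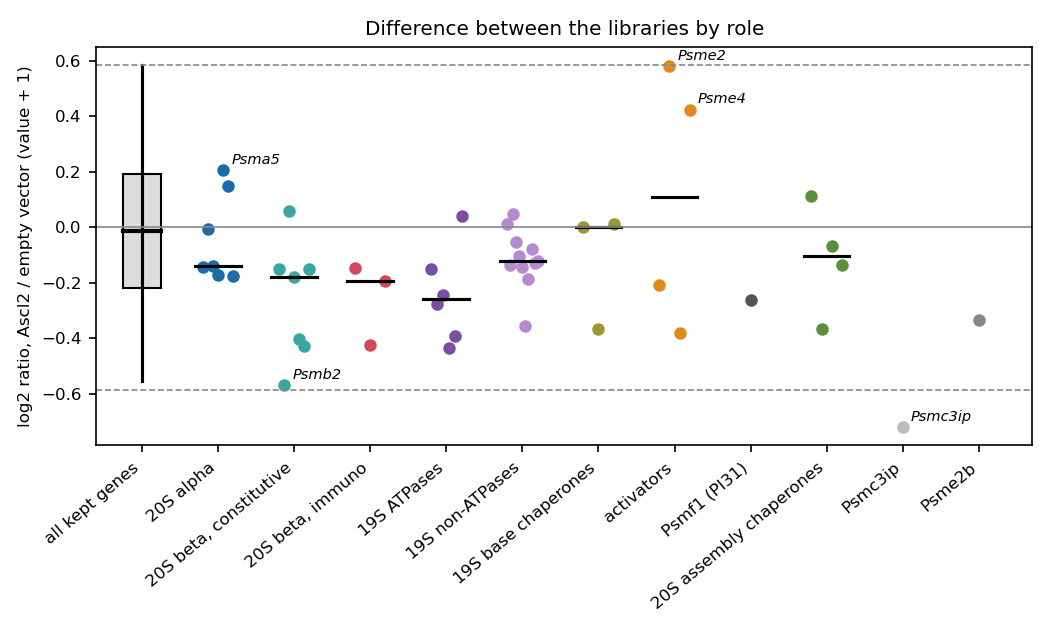
Log2 ratio of Ascl2 over the empty vector (values plus 1) for each member by role, with a black bar at the median of roles with at least 3 genes. The box at the left gives the median and quartiles of all 12283 kept genes with a line from the 5th to the 95th percentile, and dashed lines mark 1.5-fold. Points lie mostly between 0 and −0.4, with Psmc3ip alone past the lower dashed line.

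The members' median depended on the setting, but a rescaling moves all genes together with the members. As reported it was −0.15, against −0.01 for all genes. With both libraries set to the same sum after leaving out immunoglobulin genes and Pcdh15, the members' median was −0.06 and that of all genes 0.07. With the trend of the ratio with mean value removed it was −0.08, and with the trend with genomic span removed −0.09, with the median of all genes at 0.00. Over the 10 settings run, the reported one included, 31 members were always below 0, 10 were always above, and 7 changed sign. The 10 were Psma5, Psma6, Psmb3, Psmc6, Psmd9, Psmd10, Psmd12, Psme2, Psme4 and Psmg1. Much of this agreement in sign was fixed in advance. The choice of pseudocount or filter cannot change the sign of a member's ratio. Each rescaling raised the Ascl2 values, so none could bring a ratio from above 0 to below it. For the 10 members always above 0, only the removal of a trend could have changed the sign. Psmd10 was among them with a reported log2 ratio of 0.001.

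Genomic span moved with the ratio. Across the 48 members Spearman's rho between span and log2 ratio was 0.38, and across 11327 genes with a known span it was 0.19. Both are descriptions, since genes share the same libraries. The 22 members spanning under 10000 bases had a median of −0.19, with 20 below 0, and the 26 longer ones a median of −0.14, with 17 below 0. The same split of the 11327 genes gave medians of −0.12 and 0.01. Of these genes, 2119 of the 3392 short ones and 3806 of the 7935 longer ones were below 0. The part of span in the members' lower values was not tested beyond removal of the trend. Psme2, which spans 3662 bases, and Psmb2, which spans 32079, both lay far from the other members of like span.

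**Figure D4:**
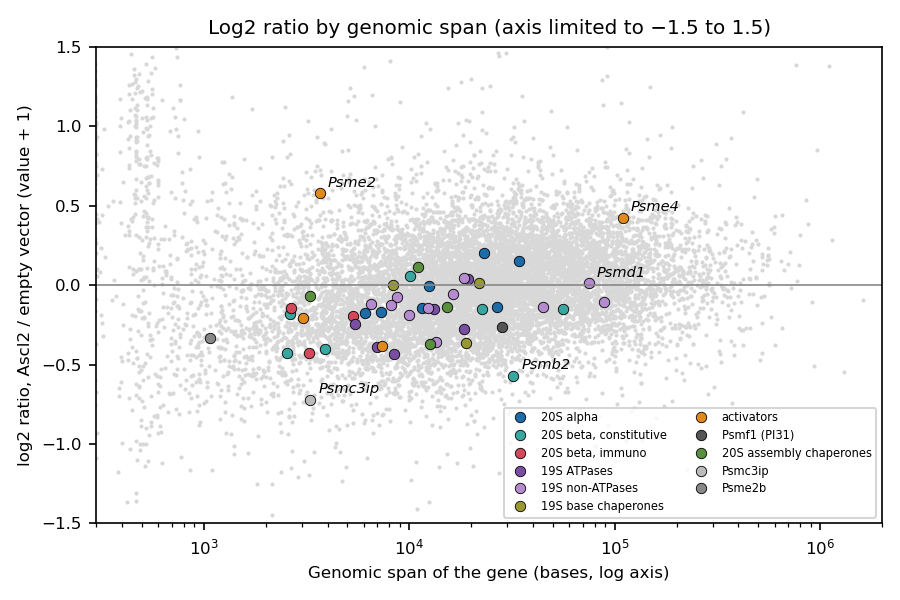
Log2 ratio of Ascl2 over the empty vector against genomic span (log axis, bases) for kept genes with a known span (grey) and the 48 members (coloured by role). Short members lie mostly below 0, while Psme4 at 109376 bases lies above and Psme2 at 3662 bases stands apart.

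Other large complexes had shifts of the same direction. Cytoplasmic ribosomal protein genes had a median of −0.22, with 64 of 84 below 0 (76.2%). Mitochondrial ribosomal protein genes had a median of −0.19, with 69 of 78 below 0 (88.5%). The background was 51.6% of all genes, and 2119 of 3392 genes spanning under 10000 bases. The part of span in these groups was not tested. Both groups were picked by symbol after the data were seen. The medians of both groups thus lay below that of the proteasome genes.

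Genes that act with the proteasome had no common direction. Of 6 genes whose products bind the 19S particle, 4 had a ratio above 0 and the median was 0.14. Uchl5, a deubiquitinase of the base, was 38.2 with the empty vector against 52.6 with Ascl2 (log2 ratio 0.45), and AI314180, the ECM29 scaffold now named Ecpas, was 26.3 and 34.4 (0.37). Adrm1, the receptor that binds Uchl5, was 30.2 and 26.6. Shfm1, the small lid subunit also called Sem1, was 54.004 and 50.9. Of 4 assembly and import factors 2 were below 0, with a median of −0.05, and Pomp, which helps beta subunits into the core, was 128 and 116.

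The regulators of proteasome genes went both ways. Of 10 measured, 5 were below 0 and the median was −0.02. The lowest was Mafk, a small Maf partner of Nfe2l1, at 8.67 with the empty vector against 6.54 with Ascl2 (log2 ratio −0.36, past the limit of 0.32), followed by the CCAAT-binding subunits Nfyc (−0.27) and Nfyb (−0.22). The highest was Nfe2l2, the oxidative stress factor related to Nfe2l1, at 12.98 and 15.9 (0.28). Nfe2l1, which restores proteasome genes when activity is short, was 63.5 with the empty vector against 64.7 with Ascl2, and Ddi2, the protease that activates it, was 20.1 and 21.9. The interferon regulators of the immunosubunits had a median of 0.05, with 3 of the 9 reported below 0. Irf1 was 26.2 and 27.5, and Nlrc5 was 26.5 and 29.3. Stat2, at 15.6 and 20.2 (log2 ratio 0.35), was the only one past the limit of 0.32, and Irf8 was the lowest (−0.21). Of 7 peptide-loading genes 3 were below 0, with a median of 0.08. Tap1, which starts 226 bases from Psmb9 on the other strand, was 132 and 119 (log2 ratio −0.15, against −0.19 for Psmb9), and B2m, the light chain of MHC class I, was 3118 and 3454.

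Upstream of the proteasome, 2 of the 4 reported genes of ubiquitin and its activation were below 0, with a median of 0.07. Rps27a, which encodes ubiquitin fused to a ribosomal protein, was 854 with the empty vector against 709 with Ascl2 (log2 ratio −0.27), and the polyubiquitin gene Ubb was 426 and 416. Ubiquitin genes share near-identical repeats and processed copies, so single values are uncertain. Uba1, the main activating enzyme, was 131 and 151. Vcp, the p97 segregase that hands substrates over, was 87.8 and 89.1, and Rad23b, a shuttle to the 19S receptors, was 89.6 and 98.2. Of the 8 shuttle and p97 genes reported 4 were below 0, with a median of −0.04. The lowest were Ubqln2 (log2 ratio −0.43) and Nsfl1c (−0.36), the only 2 past the limit of 0.32. Downstream, 3 of 7 cytosolic peptidases were below 0 (median 0.03), among them Thop1 at 14.9 and 10.1.

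**Figure D5:**
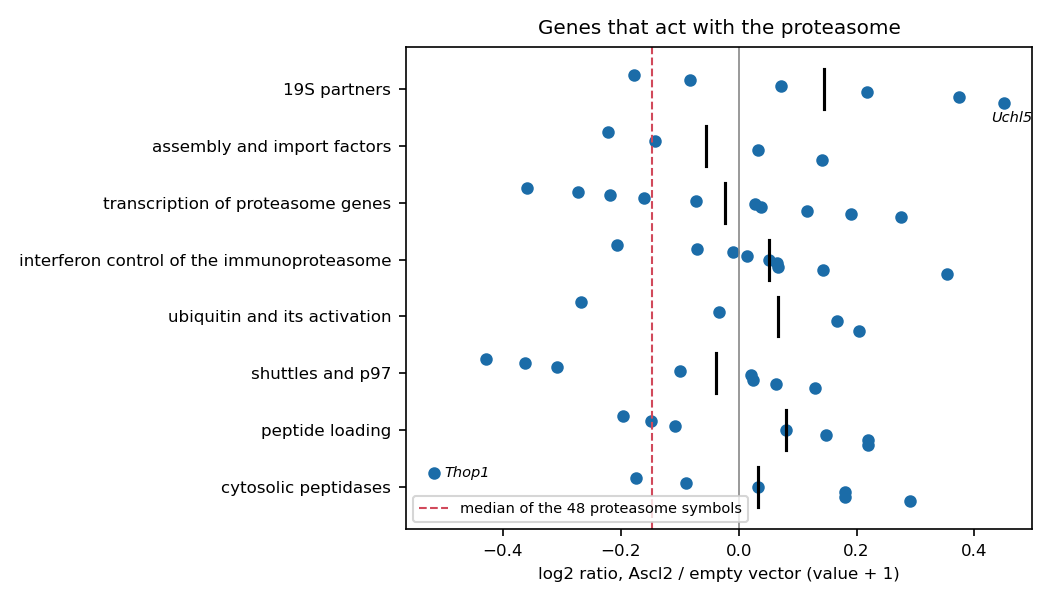
Log2 ratio of Ascl2 over the empty vector (values plus 1) for the reported genes of 8 pathway lists, with a black bar at each list's median and a dashed line at the median of the 48 proteasome symbols (−0.15). Thop1 at −0.52 has the lowest ratio shown and Uchl5 at 0.45 the highest.

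The labels were checked once. Ascl2 was 0.0809 with the empty vector against 29.4 with Ascl2. The B cell markers Cd79a, Cd79b, Ms4a1, Pax5 and Cd22 lay between 98.4 and 748 with the empty vector and between 97.7 and 626 with Ascl2. Of these 5 genes 4 were below 0 and the median log2 ratio was −0.25, against −0.15 for the proteasome genes, with Cd79a at −0.43, Cd22 at −0.31, Cd79b at −0.25, Pax5 at −0.01 and Ms4a1 at 0.30. Of 10 myeloid markers 7 were listed, and the 6 that passed the filter summed to 45.2 and 50.1. Of these 6 genes 5 were above 0 and the median was 0.24, with Fcer1g at 0.69 (past 1.5-fold), Lyz2 at 0.40 and Cd68 the exception at −0.55. Of 6 dendritic cell markers 2 were listed, summing to 26.6 and 24.4, and of 7 T cell markers Lck alone, at 21.7 and 17.8. Of 6 erythroid and stromal markers 5 were listed and the 3 that passed summed to 7.43 and 6.51. The part of other cells in these results was not tested, and in bulk RNA fewer cells of a type and less RNA per cell cannot be told apart.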

How the data were processed

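RNA was analysed from 2 libraries, 1 per group, grouped by sample title. The 2 chromatin samples were not analysed here. The deposited signal values are abundances per gene and were treated as scaled for depth and, as the values appear, for gene length. The sources used here do not name the unit, quantifier, annotation or strand setting. The submitters' processing notes name mm10, Trim Galore, Bowtie2, Picard and MACS2. Depth is unknown.

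The log2 ratio used a pseudocount of 1, which understates differences of low genes, and a minimum value of 1 in at least 1 library. No p-value was computed. Some genes of the pathway and marker lists are not reported here and were left out of the counts and medians of their lists. All symbols of the pattern and all other list members could be named. The members and lists were chosen with earlier results of these data known. Spans, coordinates and promoters came from RefSeq tables on GRCm38.p6, matched by symbol. Alternatives were pseudocounts of 0.1 and 5, no filter, a minimum of 5, 3 rescalings, removal of 2 trends (running median over 501 genes), list means and a threshold of 0.32 on the log2 scale. Leaving out Psmc3ip and Psme2b was added after the data were seen. Steps were tested on simulated data. Python 3.11.15, pandas 2.3.3 and numpy 2.4.6 were used.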

Additional observations from a re-analysis of the deposited data

How the results depend on the processing

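With no replicate, a median or ratio was counted as moved when it changed by at least 0.1 on the log2 scale, and a count when it changed by more than 1.5 times. Within these limits were 80 of 82 recomputed medians and ratios and 29 of 39 recomputed counts. The medians outside them came with the genomic-span trend removed, where the median of the 20S assembly chaperones changed from −0.10 to 0.0045 and that of the immunosubunits from −0.19 to −0.052. Much of the agreement among the medians was fixed in advance. All 48 members passed each filter, so no filter and a minimum of 5 left the members' medians and counts as they were. The choice of pseudocount could not change the count of members below 0. The 3 rescalings move a ratio by 0.092 at most, which is under the limit of 0.1. That limit is also wide beside the median of all members, −0.15, which counted as unmoved at −0.06. The number of members past 1.5-fold was 1 (Psmc3ip), and it was 0 with a pseudocount of 5 or without Psmc3ip and Psme2b. It was 2 under each of the 3 rescalings and with the mean-value trend removed (Psmc3ip and Psme2), and 2 with the span trend removed (Psme2 and Psmb2). It was 14 at a limit of 0.32 on the log2 scale. Of all 12283 genes, 1145 were past 1.5-fold. Of the same genes that count was 1717 with a pseudocount of 0.1 and 444 with a pseudocount of 5. Fewer genes entered with a minimum of 5 (732 of 9196) and with the span trend removed (830 of 11327). Under the other settings the count was between 1095 and 1194, the latter of 13792 genes with no filter. The order of the roles also turned: with the span trend removed the median was −0.18 for the 19S ATPases and −0.23 for the constitutive beta ring. The cause of these changes was not tested, except that a larger pseudocount and a higher minimum act on low genes. Depth is unknown and no error can be put on any difference.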
